A study of Mus musculus with 14 samples.

Results

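The kidney genes for phosphate, calcium, vitamin D and Klotho are 10 of the 21878 genes measured in every mouse, and they were picked by symbol. They are the phosphate transporters Slc34a1, Slc34a3 and Slc20a2, the FGF23 co-receptor Kl, the vitamin D enzymes Cyp24a1 and Cyp27b1, the vitamin D receptor Vdr, and the calcium-handling genes Calb1, Trpv5 and Slc8a1. Every one of the 10 was found in all 14 mice and passed the filter on low values. Kidney RNA (which part of the kidney is not stated) came from male C57BL/6J mice in 4 groups, namely 4 WT diabetic mice, 4 Cfb-/- diabetic mice, 3 WT control mice and 3 Cfb-/- control mice. Diabetic mice had received a high-fat diet (HFD, 60% of calories from fat) for 4 weeks and then streptozotocin (STZ, a toxin of insulin-producing cells) at 60 mg/kg on 5 days. Control mice had chow with 10% of calories from fat and injections of the citrate buffer alone. Cfb encodes complement factor B, a protease of the alternative complement pathway. The knockout is in every cell rather than in a chosen cell type, and the labels name it a knockdown. A treatment label that mentions diabetes is also on the control mice, whose titles, diet and disease labels give control. The mice began the diets at 8 weeks of age and were collected 21 weeks after STZ, and the labelled time is 34 weeks for all of them. HFD and STZ were always given together, so their parts cannot be told apart.

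Filtered phosphate is taken back in the proximal tubule through the sodium-phosphate cotransporters encoded by Slc34a1 and Slc34a3, which parathyroid hormone (PTH) and FGF23 remove from the brush border. FGF23 signals through FGF receptors joined to Klotho, which is most abundant in the distal convoluted tubule. It also lowers Cyp27b1, which makes active vitamin D, and raises Cyp24a1, which breaks it down, while active vitamin D acts through Vdr. In the distal convoluted and connecting tubules, calcium enters through Trpv5, is carried by calbindin (Calb1) and leaves through pumps and the exchanger Slc8a1.

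Levels are in FPKM, the fragments of a gene scaled to transcript length and to library size, so that genes can be compared per length. The deposited values summed to 330246 to 488196 FPKM per mouse, and relative depth, read from the steps between low values, was 0.837 to 1 of the deepest library. The sum was lower in every diabetic mouse (364950 FPKM at most) than in every control mouse (372880 FPKM at least). Absolute depth is unknown. Kap, an abundant proximal tubule transcript, held 10.2% to 13.9% of the summed FPKM in control mice and 1.98% to 4.60% in diabetic mice. The WT control mouse 2 had the highest sum and the highest Kap share. Cfb ranged over 1.13 to 1.43 FPKM in the diabetic knockouts and 2.05 to 2.22 FPKM in the control knockouts. Its range was 56.7 to 81.9 FPKM in diabetic and 62.2 to 131 FPKM in control WT mice, so each library matched its genotype.

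In WT control mice the levels spanned 3 orders of magnitude. Slc34a1 stood first with 1776 ± 225 FPKM (SD, n = 3). Kl followed with 123 ± 27.1 FPKM (SD, n = 3) and Calb1 with 106 ± 19.0 FPKM (SD, n = 3), and the mice of these neighbours overlapped. Vdr, at 55.5 ± 6.65 FPKM (SD, n = 3), overlapped with neither Calb1 above it nor Cyp24a1 below it. Cyp24a1 was at 26.3 ± 13.4 FPKM (SD, n = 3), and its wide spread took in the levels of Slc34a3, at 17.8 ± 1.77 FPKM, and the upper end of Slc20a2, at 11.4 ± 1.42 FPKM (both SD, n = 3). Slc8a1 was at 7.24 ± 2.25 FPKM (SD, n = 3), below every Slc20a2 value. Trpv5, at 2.81 ± 0.859 FPKM, and Cyp27b1, at 1.80 ± 1.36 FPKM (both SD, n = 3), closed the order and overlapped.

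**Figure D1:**
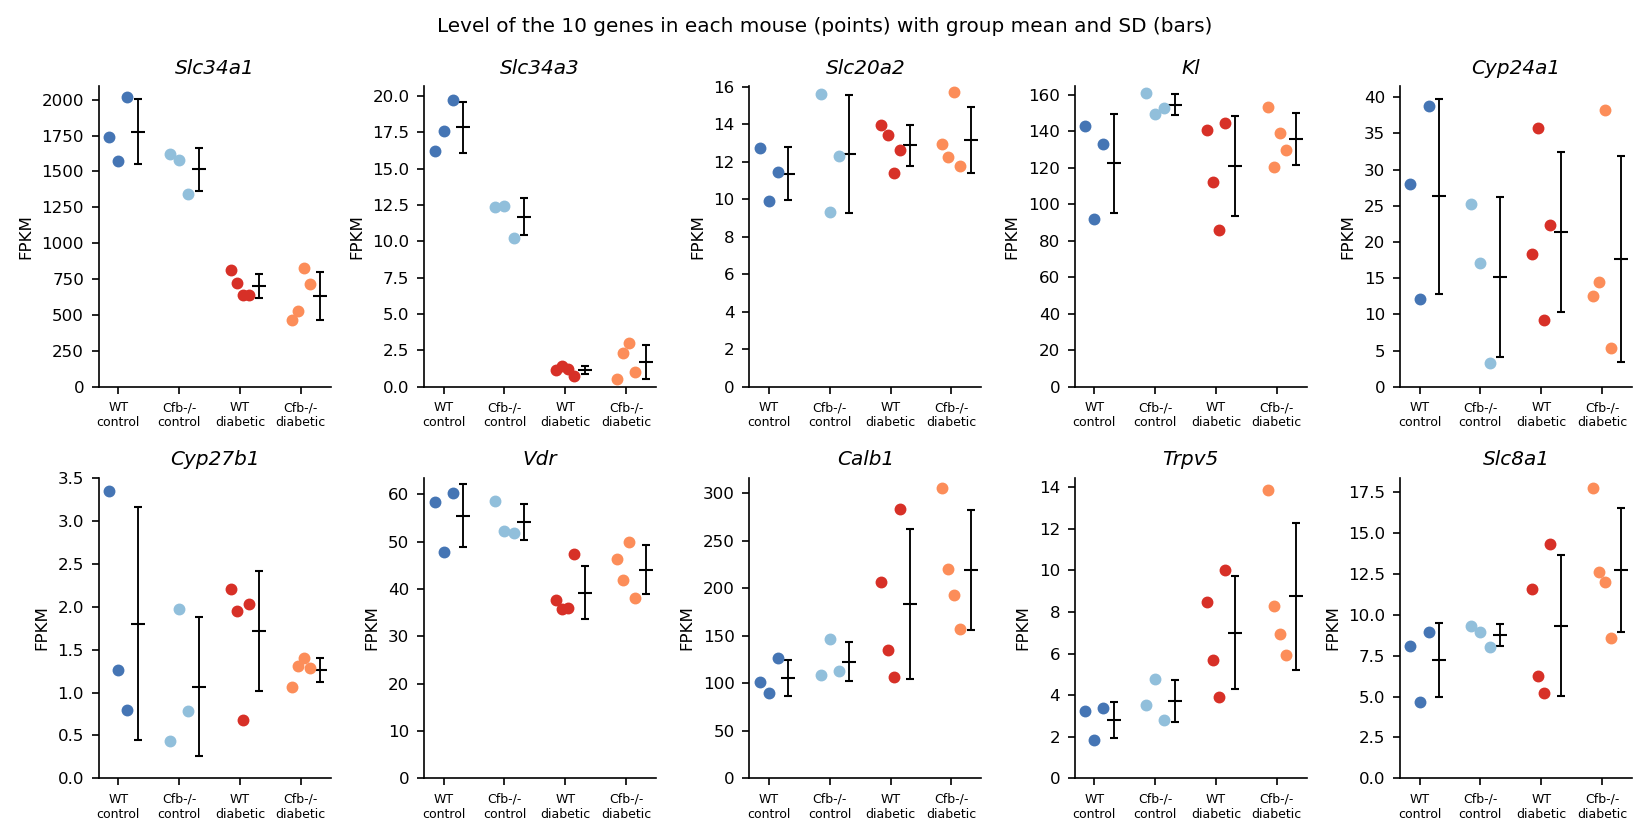
Level in FPKM (linear axis from 0, a scale of its own in each panel) of the 10 genes in each of the 14 mice, with points for mice and bars for the group mean and SD. In all panels the groups are, from left, WT control, Cfb-/- control, WT diabetic and Cfb-/- diabetic mice. Slc34a1 and Slc34a3 are lower in each diabetic mouse than in each control mouse, and the points of Cyp24a1 and Cyp27b1 overlap among all 4 groups.

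The first question was how diabetes altered these genes in each genotype. limma was fitted to log2(FPKM + 0.1) of 14912 genes across the 14 mice together, with Benjamini-Hochberg adjustment, and changes are differences on this scale. In WT mice 4 of the 10 genes passed an adjusted p of 0.05, namely Trpv5, which rose, and Slc34a1, Slc34a3 and Vdr, which fell. Of all tested genes 46.1% passed this threshold, 36.2% of them higher and 9.97% lower as shares of the tested genes. Diabetes in Cfb-/- mice moved 4 of the 10 genes past the threshold, with Calb1 and Trpv5 higher and Slc34a1 and Slc34a3 lower, against 33.8% of all genes, 27.4% higher and 6.4% lower. The share of these genes that passed is thus near the background in both genotypes. The 10 genes had a median change of 0.01 in WT mice and 0.20 in Cfb-/- mice on the log2 scale, beside 0.29 and 0.22 for all 14912. The split of calls depended on the scaling. Higher genes made up 78.4% of the calls in WT mice and 81.0% in Cfb-/- mice, but 50.3% and 56.8% after median-ratio scaling, 44.2% and 49.1% after quantile normalization, and 93.9% and 92.0% when each mouse was rescaled to the same sum. These scalings moved the median of all genes to 0.03, -0.05 and 0.57 in WT mice and to -0.01, -0.05 and 0.40 in Cfb-/- mice.

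**Figure D2:**
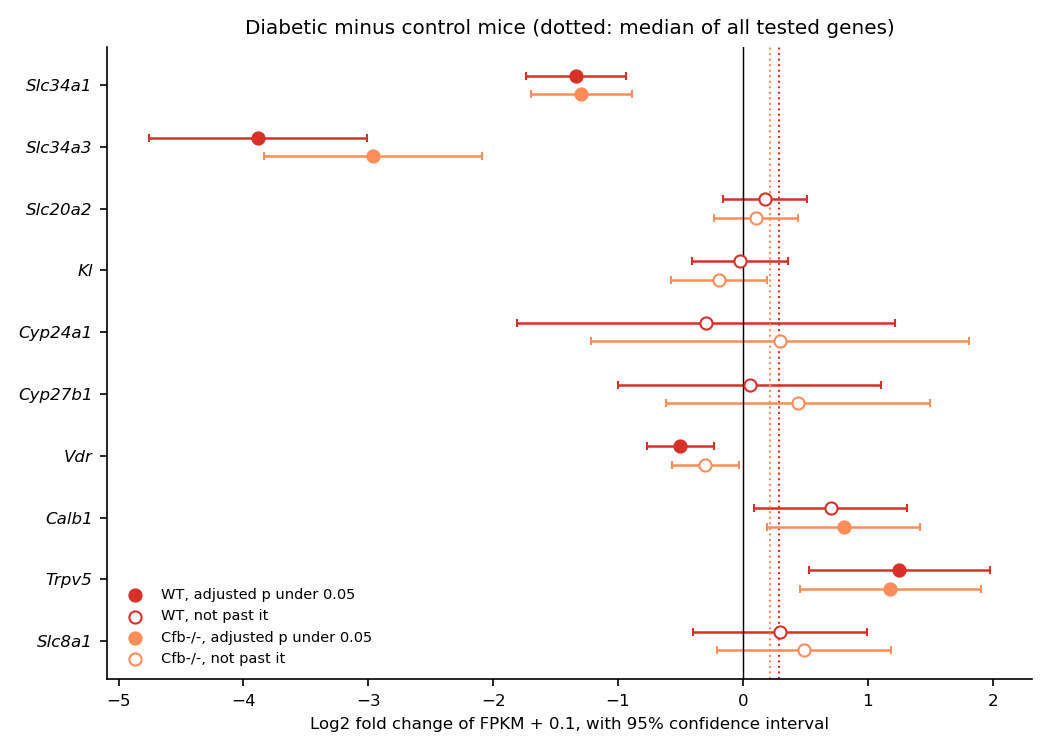
Log2 fold change of diabetic against control mice for the 10 genes in WT mice (red) and Cfb-/- mice (orange), with 95% confidence intervals from limma. Filled points passed an adjusted p of 0.05 and dotted lines mark the median of all 14912 tested genes. Slc34a3 lies farthest to the left in both genotypes and Trpv5 farthest to the right.

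Slc34a1, which encodes NaPi-IIa, the main phosphate transporter of the proximal brush border, fell in diabetes in both genotypes. Its gene lies at chr13:55399622-55414695 (GRCm38.p6), where it overlaps Pfn3, which was at 10.4 FPKM at most. It was at 1740, 1571 and 2017 FPKM in the WT control mice and at 811, 720, 642 and 637 FPKM in the WT diabetic mice. In Cfb-/- control mice it was at 1620, 1580 and 1346 FPKM, against 466, 525, 828.7 and 713 FPKM in Cfb-/- diabetic mice. Every diabetic mouse was below every control mouse. The log2 fold change was -1.34 (SE 0.19) in WT mice and -1.29 (SE 0.19) in Cfb-/- mice, with adjusted p of 9.94e-05 and 1.43e-04 from limma and an exact two-sided permutation p of 0.0286 each, the smallest that 4 mice against 3 allow. In mean FPKM, Slc34a1 was 2.53-fold lower in WT diabetic mice and 2.39-fold lower in Cfb-/- diabetic mice. In bulk kidney RNA, fewer cells of a type and less RNA per cell cannot be told apart.

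Slc34a3, which encodes NaPi-IIc, a second proximal brush border phosphate transporter, fell farther. It lies at chr2:25228897-25234270 (GRCm38.p6). WT control mice had 16.2, 17.6 and 19.7 FPKM and WT diabetic mice had 1.12, 1.45, 1.24 and 0.752 FPKM. Cfb-/- control mice had 12.4, 12.4 and 10.2 FPKM and Cfb-/- diabetic mice had 0.526, 2.29, 3.03 and 0.996 FPKM. No diabetic mouse came near a control mouse, and the Cfb-/- diabetic mice differed among themselves by 5.77 times from lowest to highest. The log2 fold change was -3.88 (SE 0.41) in WT mice and -2.96 (SE 0.41) in Cfb-/- mice, with adjusted p of 1.23e-05 and 9.51e-05 from limma and an exact permutation p of 0.0286 each. In mean FPKM the gene was 15.6-fold and 6.82-fold lower. Ranked from the lowest log2 fold change among all 14912 tested genes, Slc34a3 stood at place 5 in both genotypes and Slc34a1 at places 149 and 163.

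The ratio of the transporters was compared as well. The ratio of Slc34a1 to Slc34a3 in FPKM was 89.4 to 107 in WT control mice and 496 to 847 in WT diabetic mice, with an exact permutation p of 0.0286. It was 127 to 132 in Cfb-/- control and 229 to 886 in Cfb-/- diabetic mice, with no overlap and an exact permutation p of 0.0571. Here the p of 0.0571 arises because another arrangement of the same mice differs at least as much, although the groups do not overlap.

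The promoter windows of both genes are shown because these transporters fell the farthest among the 10. They hold 250 bases before and 50 bases from a transcript start on the gene's own strand, as RefSeq's promoter table for GRCm38.p6 gives them, at chr13:55399398-55399697 on the plus strand for Slc34a1 and at chr2:25234185-25234484 on the minus strand for Slc34a3. These starts lie 26 bases (Slc34a1) and 36 bases (Slc34a3) inside the outermost start of the gene span. Capitals mark the letters of 3 motifs, read on both strands, and no match overlaps another. The core promoter element searched was TATAAA. The half-site of the proximal tubule factor HNF1 was searched as GTTAAT. The half-site of nuclear receptors was searched as AGGTCA.
Slc34a1: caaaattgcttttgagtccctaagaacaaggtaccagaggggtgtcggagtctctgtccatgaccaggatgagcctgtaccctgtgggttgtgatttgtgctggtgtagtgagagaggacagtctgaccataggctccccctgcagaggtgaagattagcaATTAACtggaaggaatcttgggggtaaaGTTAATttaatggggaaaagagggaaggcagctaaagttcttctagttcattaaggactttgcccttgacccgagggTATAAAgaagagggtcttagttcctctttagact
Slc34a3: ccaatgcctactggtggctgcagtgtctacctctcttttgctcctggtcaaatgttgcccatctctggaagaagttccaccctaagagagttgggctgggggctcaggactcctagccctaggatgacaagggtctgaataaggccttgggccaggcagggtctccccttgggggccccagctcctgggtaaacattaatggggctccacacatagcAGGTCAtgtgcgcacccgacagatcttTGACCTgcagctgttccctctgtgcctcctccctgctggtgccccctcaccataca
Slc34a1 had TATAAA from position 17, counted from the start used for the window, which is 29 bases before the start of a GENCODE transcript of the gene. It also had GTTAAT on its own strand from position -61 and on the opposite strand from position -89. Slc34a3 had AGGTCA from position -33 and, on the opposite strand, from position -6. Among 32851 promoter windows of this length 13.6% held TATAAA, 7.10% GTTAAT and 16.3% AGGTCA. Windows were found for 7 of the 10 genes, without Cyp24a1, Calb1 and Slc20a2. A match describes letters and is not evidence of binding.

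Slc20a2 encodes PiT-2, a phosphate transporter of a different family found in many cells, and lies at chr8:22476700-22569616 (GRCm38.p6). It was at 9.90 to 12.7 FPKM in WT control mice, 11.4 to 13.98 FPKM in WT diabetic mice, 9.34 to 15.6 FPKM in Cfb-/- control mice and 11.8 to 15.7 FPKM in Cfb-/- diabetic mice. The groups overlapped, and the log2 fold change was 0.18 (SE 0.16) in WT mice and 0.11 (SE 0.16) in Cfb-/- mice, with adjusted p of 0.360 and 0.628 from limma. The interval of the difference ran from -0.16 to 0.52 in WT mice and from -0.23 to 0.44 in Cfb-/- mice. Rescaled to the same sum, the change in WT mice was 0.49 with an adjusted p of 0.0391 from limma. The gene overlaps Smim19, which was at 23.6 FPKM at most.

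Of 10 other phosphate transport and scaffold genes, 2 rose, 5 fell and 3 did not pass in WT mice, the median log2 change being -0.25. In Cfb-/- mice 3 rose, 4 fell and 3 did not pass, with a median of -0.34. Slc17a3, an organic anion transporter of the sodium-phosphate family, fell from 84.5 to 37.4 FPKM on average in WT mice and from 93.7 to 31.1 FPKM in Cfb-/- mice, with adjusted p of 6.33e-05 and 6.47e-06 from limma. Among the scaffold genes, Slc9a3r1 (NHERF1) and Pdzk1, whose proteins hold NaPi-IIa in the brush border, fell. Slc9a3r1 changed by -0.55 and -0.37 and Pdzk1 by -0.54 and -0.70 on the log2 scale, and limma passed all 4 changes with adjusted p of 9.57e-04, 0.0142, 0.00705 and 0.00153. The call of Pdzk1 in WT mice was lost with quantile normalization and with rescaling to the same sum, and that of Slc9a3r1 in Cfb-/- mice with rescaling. A pair of genes of this list, named after their values were seen, went the other way. Slc9a3r2 (NHERF2) rose by 0.61 and Ezr (ezrin, which links scaffolds to actin) by 0.26 in Cfb-/- mice, with adjusted p of 0.0116 and 0.0386 from limma, and both calls were lost with median-ratio scaling. Their differences in WT mice were 0.24 and 0.16, with adjusted p of 0.240 and 0.152 from limma. Pdzk1ip1 changed by -0.80 in WT mice, where limma gave an adjusted p of 6.08e-04, and by -0.32 in Cfb-/- mice, where its adjusted p was 0.107. Slc34a2, the NaPi-IIb transporter of gut and lung, rose from 0.307 to 2.85 FPKM in WT mice and from 0.757 to 2.60 FPKM in Cfb-/- mice, with adjusted p of 2.04e-05 and 0.00101 from limma. Its diabetic level remained far below that of Slc34a1. Slc20a1, encoding PiT-1, rose from 6.36 to 10.8 FPKM in WT mice with an adjusted p of 0.0122, while limma gave 0.0956 in Cfb-/- mice. The call in WT mice was lost with median-ratio scaling and with quantile normalization.

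Kl encodes Klotho, the co-receptor that gives FGF23 its tissue target, and lies at chr5:150952607-150993817 (GRCm38.p6). WT control mice had 143, 91.9 and 133 FPKM and WT diabetic mice 141, 112, 86.1 and 145 FPKM. Cfb-/- control mice had 161, 150 and 153 FPKM and Cfb-/- diabetic mice 153, 120, 139 and 130 FPKM. The diabetic and control ranges overlapped in both genotypes. The log2 fold change was -0.02 (95% interval -0.41 to 0.36) in WT mice and -0.19 (interval -0.57 to 0.19) in Cfb-/- mice, with adjusted p of 0.919 and 0.430 from limma. With median-ratio scaling the change in Cfb-/- mice was -0.44 with an adjusted p of 0.0428.

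Of 15 other genes of PTH and FGF23 reception, 12 were tested. In WT mice 5 rose, 3 fell and 4 did not pass, the median log2 change being 0.19, and in Cfb-/- mice 3 rose, 4 fell and 5 did not pass, with a median of 0.15. Pth1r, the PTH receptor, fell from 170 to 91.9 FPKM in WT mice and from 134 to 85.9 FPKM in Cfb-/- mice, with adjusted p of 9.27e-05 and 0.00115 from limma. Fgfr4, an FGF receptor of the proximal tubule, fell from 14.5 to 8.92 FPKM and from 14.6 to 8.99 FPKM, with adjusted p of 1.42e-04 and 1.69e-04 from limma. Fgfr1, the main partner of Klotho for FGF23, rose by 0.54 and 0.60 on the log2 scale, with adjusted p of 0.00565 and 0.00374 from limma, and the call in WT mice was lost with median-ratio scaling and with quantile normalization. Sgk1, a kinase that responds to hormones, rose from 21.8 to 77.0 FPKM in WT mice and from 13.8 to 46.3 FPKM in Cfb-/- mice, with adjusted p of 1.06e-04 and 2.00e-04 from limma.

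Cyp24a1 and Cyp27b1, the enzymes that break down and make active vitamin D, overlapped among all 4 groups. Cyp24a1 (chr2:170482957-170497145, GRCm38.p6) was at 28.0, 12.1 and 38.7 FPKM in WT control mice, against 18.3, 35.8, 9.21 and 22.4 FPKM in the diabetic mice of this genotype. In Cfb-/- control mice it was at 25.2, 17.1 and 3.32 FPKM and in Cfb-/- diabetic mice at 12.5, 14.5, 38.2 and 5.31 FPKM. The highest mouse exceeded the lowest of its group by 3.21 to 7.60 times. The log2 fold change was -0.30 (interval -1.81 to 1.21) in WT mice and 0.29 (interval -1.22 to 1.81) in Cfb-/- mice, so changes of over 2-fold either way were within the interval, and the adjusted p was 0.749 and 0.776 from limma. The gene overlaps Pfdn4, which was at 13.9 FPKM at most, a level within the range of Cyp24a1 itself.

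Cyp27b1 (chr10:127048246-127054884, GRCm38.p6) was at 3.35, 1.26 and 0.793 FPKM in WT control mice, against 2.20, 1.95, 0.680 and 2.03 FPKM in the diabetic mice of this genotype. In Cfb-/- control mice it was at 0.441, 1.98 and 0.789 FPKM and in Cfb-/- diabetic mice at 1.06, 1.31, 1.40 and 1.28 FPKM. The groups overlapped throughout. The highest mouse exceeded the lowest by 3.24 to 4.49 times in the other groups but by 1.32 times in Cfb-/- diabetic mice. The log2 fold change was 0.05 (interval -1.003 to 1.11) and 0.44 (interval -0.61 to 1.497), with adjusted p of 0.939 and 0.517 from limma. The ratio of Cyp24a1 to Cyp27b1 in FPKM ran from 4.14 to 57.2 over the 14 mice, and its groups overlapped in every comparison.

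Vdr, the nuclear receptor of active vitamin D, lies at chr15:97854427-97908296 (GRCm38.p6). It was at 58.4, 47.9 and 60.2 FPKM in WT control mice, against 37.6, 35.9, 36.1 and 47.5 FPKM in the diabetic mice of this genotype. In Cfb-/- control mice it was at 58.5, 52.3 and 51.8 FPKM and in Cfb-/- diabetic mice at 46.3, 41.9, 50.0 and 38.1 FPKM. The diabetic mice were below the control mice in both genotypes, by a narrow margin in each. Vdr fell in WT mice by 0.50 on the log2 scale (SE 0.13, adjusted p = 0.00535 from limma), and its difference of -0.30 (SE 0.13) in Cfb-/- mice did not pass (adjusted p = 0.0762 from limma). The exact permutation p was 0.0571 in each. When each mouse was rescaled to the same sum the difference in WT mice was -0.19 with an adjusted p of 0.269 from limma. With median-ratio scaling that in Cfb-/- mice was -0.55 with an adjusted p of 0.00215.

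Of 14 other genes of vitamin D uptake, activation and action, 13 were tested. In each genotype 2 rose, 3 fell and 8 did not pass, the median log2 change being 0.00 in WT mice and 0.06 in Cfb-/- mice. Gc, the vitamin D binding protein of plasma, rose from 6.64 ± 3.39 FPKM (SD, n = 3) to 131 ± 40.5 FPKM (SD, n = 4) in WT mice. In Cfb-/- mice it rose from 4.55 ± 0.722 FPKM (SD, n = 3) to 124 ± 35.7 FPKM (SD, n = 4), and the log2 fold change was 4.39 in WT mice and 4.71 in Cfb-/- mice with adjusted p of 2.41e-06 and 1.61e-06 from limma. Amn and Dab2, partners of the receptors that take filtered binding protein into proximal cells, fell by 0.92 and 0.48 on the log2 scale in WT mice, with adjusted p of 4.46e-04 and 0.0106 from limma. In Cfb-/- mice they fell by 0.51 and 0.47 (adjusted p = 0.0228 and 0.0142 from limma). The call of Dab2 in WT mice was lost with quantile normalization, and those of Dab2 in both genotypes and Amn in Cfb-/- mice with rescaling to the same sum. Lrp2, which encodes the uptake receptor megalin, changed by -0.33 in WT mice with an adjusted p of 0.361, and by -0.83 in Cfb-/- mice with an adjusted p of 0.0391 from limma, a call lost with quantile normalization and with rescaling. Baz1b, a chromatin factor that works with Vdr, rose by 0.47 in WT mice (adjusted p = 0.0214 from limma), a call lost with median-ratio scaling and with quantile normalization, and differed by 0.19 in Cfb-/- mice (adjusted p = 0.368 from limma).

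Trpv5, the calcium entry channel of the distal convoluted and connecting tubules, rose in both genotypes. The gene lies at chr6:41651661-41681224 (GRCm38.p6). Its level was 3.22, 1.82 and 3.38 FPKM in WT control mice, against 8.46, 5.67, 3.92 and 10.0 FPKM in the diabetic mice of this genotype. The Cfb-/- control mice had 3.52, 4.78 and 2.79 FPKM and the diabetic ones 13.9, 8.32, 6.94 and 5.92 FPKM. Each diabetic mouse was above each control mouse of its genotype. The log2 fold change was 1.25 (SE 0.34) in WT mice and 1.18 (SE 0.34) in Cfb-/- mice, with adjusted p of 0.00864 and 0.0149 from limma and exact permutation p of 0.0571 and 0.0286. The mean was 2.50-fold and 2.37-fold higher in FPKM. Quantile normalization ended both calls, with adjusted p of 0.0601 and 0.0514 from limma. Without WT control mouse 2, in which Trpv5 was lowest, the change in WT mice was 0.98 with an adjusted p of 0.0581, and without Cfb-/- control mouse 3 that in Cfb-/- mice was 0.9989 with an adjusted p of 0.0652. Its promoter window is shown because Trpv5 rose in both genotypes. The window is on the minus strand at chr6:41680674-41680973 (RefSeq, GRCm38.p6), with capitals for TATAAA. Its start base lies 501 bases inside the outermost start of the gene span, so the whole window is within the span given above.
Trpv5: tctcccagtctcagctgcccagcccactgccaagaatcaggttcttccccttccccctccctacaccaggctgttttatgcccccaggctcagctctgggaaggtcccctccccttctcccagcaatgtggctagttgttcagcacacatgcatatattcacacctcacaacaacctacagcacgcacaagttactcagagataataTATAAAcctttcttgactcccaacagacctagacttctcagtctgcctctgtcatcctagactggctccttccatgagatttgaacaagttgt
TATAAA began at position -43, and neither GTTAAT nor AGGTCA was in this window.

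Calb1 encodes calbindin-D28k, the protein that carries calcium across distal tubule cells, and lies at chr4:15881264-15906709 (GRCm38.p6). WT control mice had 101, 89.8 and 127 FPKM and WT diabetic mice 207, 135, 107 and 283 FPKM. Cfb-/- control mice had 108, 146 and 113 FPKM and Cfb-/- diabetic mice 305, 220, 193 and 157 FPKM. The Cfb-/- groups did not overlap, while the lowest WT diabetic mouse was within the WT control range. Calb1 rose in Cfb-/- mice by 0.81 on the log2 scale (SE 0.29, adjusted p = 0.0426 from limma), and the difference of 0.70 (SE 0.29) in WT mice did not pass (adjusted p = 0.0579 from limma). The difference between the genotypes in this change was 0.10 (interval -0.76 to 0.97). The call in Cfb-/- mice was lost when any one of the Cfb-/- control mice, or the diabetic mouse 1, 2 or 3 of this genotype, was left out, with log2 changes of 0.63 to 0.94 and adjusted p of 0.0511 to 0.128. The call was also lost with median-ratio scaling, at 0.56 and an adjusted p of 0.127 from limma. A call in WT mice was gained with quantile normalization, at 0.88 and an adjusted p of 0.0327 from limma. Rescaling to the same sum also gained it, at 1.01 and an adjusted p of 0.00819. So did leaving out Cfb-/- diabetic mouse 1 or WT diabetic mouse 2 or 3, with adjusted p of 0.0149 to 0.0482 from limma.

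Slc8a1 encodes NCX1, the exchanger that moves calcium out of distal tubule cells toward the blood, and lies at chr17:81373105-81738387 (GRCm38.p6). It was at 8.07, 4.69 and 8.96 FPKM in WT control mice, against 11.6, 6.23, 5.23 and 14.3 FPKM in the diabetic mice of this genotype. Among Cfb-/- mice it was at 9.31, 8.98 and 8.04 FPKM in control and 17.8, 12.6, 12.0 and 8.59 FPKM in diabetic mice. The groups overlapped, and the log2 fold change was 0.30 (interval -0.40 to 0.99) in WT mice and 0.49 (interval -0.21 to 1.19) in Cfb-/- mice, with adjusted p of 0.472 and 0.271 from limma.

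Ratios among Trpv5, Calb1 and Slc8a1 were also compared, without adjustment of the exact permutation p for the number of ratios. The ratio of Slc8a1 to Trpv5 in FPKM was 2.51 to 2.65 in WT control mice and 1.10 to 1.43 in WT diabetic mice. Among Cfb-/- mice it was 1.88 to 2.89 in control and 1.28 to 1.73 in diabetic mice, and the exact permutation p was 0.0286 in both genotypes. The ratio of Trpv5 to Calb1 was higher in diabetes by 0.58 in WT mice and 0.40 in Cfb-/- mice on the log2 scale, with an exact permutation p of 0.0286 each. That of Slc8a1 to Calb1 differed by -0.40 and -0.31, with overlap in both genotypes and an exact permutation p of 0.0571 each.

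Of 19 other genes of calcium transport, 18 were tested, and in each genotype 9 rose, 1 fell and 8 did not pass. The median log2 fold change was 0.44 in WT mice and 0.57 in Cfb-/- mice. Trpv6, the close relative of Trpv5, rose from 0.283 to 0.980 FPKM in WT mice and from 0.344 to 1.04 FPKM in Cfb-/- mice, with adjusted p of 0.00389 and 0.00929 from limma, and quantile normalization ended both calls. S100g, which encodes calbindin-D9k, was at 1175 ± 363 FPKM (SD, n = 3) in control and 977 ± 418 FPKM (SD, n = 4) in diabetic WT mice, with an adjusted p of 0.466 from limma. It was at 636 ± 158 FPKM (SD, n = 3) in control and 1101 ± 409 FPKM (SD, n = 4) in diabetic Cfb-/- mice, with an adjusted p of 0.105 from limma. The calcium pump gene Atp2b1 rose by 0.46 in WT mice (adjusted p = 0.0425 from limma, lost with median-ratio scaling and with quantile normalization) and differed by 0.05 in Cfb-/- mice (adjusted p = 0.834 from limma). Cldn19, a tight junction gene of the thick ascending limb, rose from 3.06 to 10.8 FPKM in WT mice and from 5.66 to 10.9 FPKM in Cfb-/- mice, with adjusted p of 0.00119 and 0.0291 from limma, and the call in Cfb-/- mice was lost with median-ratio scaling and with quantile normalization. Anxa2, an annexin that helps bring Trpv5 to the membrane, rose by 1.56 and 1.49 on the log2 scale, with adjusted p of 5.77e-05 and 9.17e-05 from limma. The gene that fell was Cldn10, which encodes a tight junction protein, by 0.69 in WT mice and 0.86 in Cfb-/- mice (adjusted p = 0.0129 and 0.00424 from limma), and the call in WT mice was lost with quantile normalization and with rescaling to the same sum. Klk1, tissue kallikrein, differed by -0.73 and -0.32 and did not pass in either genotype (adjusted p = 0.0611 and 0.440 from limma).

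Of 13 genes of mineral deposition and stanniocalcins, 12 were tested. In WT mice 5 rose, 3 fell and 4 did not pass, the median log2 change being 0.06, and in Cfb-/- mice 6 rose, 1 fell and 5 did not pass, with a median of 0.41. Spp1, osteopontin, rose from 238 to 1671 FPKM in WT mice and from 274 to 1565 FPKM in Cfb-/- mice, with adjusted p of 5.47e-07 and 2.00e-06 from limma. Stc1, a secreted regulator of calcium and phosphate transport, rose from 0.803 to 5.18 FPKM and from 1.79 to 5.44 FPKM, with adjusted p of 2.90e-05 and 0.00137 from limma. Alpl, the alkaline phosphatase that splits pyrophosphate, fell from 91.2 to 44.97 FPKM and from 61.4 to 39.5 FPKM, with adjusted p of 2.32e-04 and 0.00606 from limma. Slc26a1, a sulfate and oxalate transporter, fell by 0.92 in WT mice (adjusted p = 0.00683 from limma), a call lost with rescaling to the same sum, and differed by -0.60 in Cfb-/- mice (adjusted p = 0.0682 from limma). Over all 5 lists, 65 of 71 genes were tested, and 23 rose and 15 fell in WT mice while 23 rose and 13 fell in Cfb-/- mice. Of all tested genes 36.2% rose and 9.97% fell in WT mice and 27.4% and 6.4% in Cfb-/- mice. No pathway gene that passed changed direction under the 3 scalings (0 of 222 checks of 74 calls), but each of these scalings lost some of the calls.

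**Figure D3:**
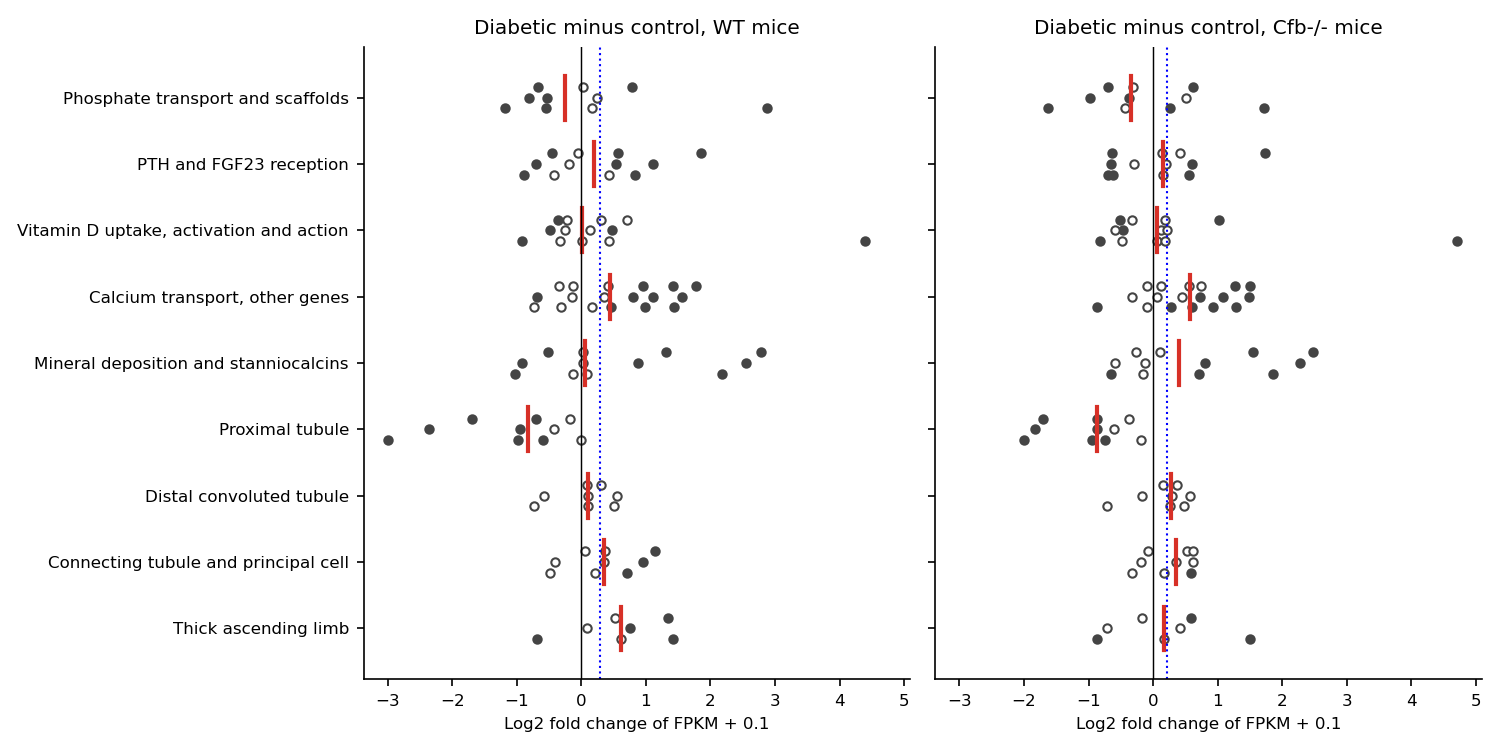
Log2 fold change of diabetic against control mice for the tested genes of 5 pathway lists and 4 tubule segment lists, in WT mice (left) and Cfb-/- mice (right), on a shared axis. Each circle is a gene, filled where the adjusted p from limma was under 0.05, the red bar is the list's median and the dotted line the median of all tested genes. The median of the proximal tubule markers lies at -0.82 and -0.86, and that of the distal convoluted tubule markers at 0.10 and 0.27.

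Markers of the tubule segments and of other cells are counted here beside the 36.2% of all genes called higher in WT mice and the 27.4% in Cfb-/- mice, with 9.97% and 6.4% lower. Of 10 proximal tubule markers 7 fell and 0 rose in each genotype, and their summed level was 3840 to 4172 FPKM in WT control, 2134 to 2695 FPKM in WT diabetic, 3663 to 3778 FPKM in Cfb-/- control and 1668 to 2579 FPKM in Cfb-/- diabetic mice. By limma 0 of the 8 distal convoluted tubule markers passed in either genotype, against 3 in WT and 1 in Cfb-/- mice at an unadjusted p under 0.05. In WT mice 2 of them were called lower after median-ratio scaling and 2 higher after rescaling to the same sum. Their summed level was 292 to 388 FPKM in WT control, 272 to 430 FPKM in WT diabetic, 372 to 543 FPKM in Cfb-/- control and 322 to 516 FPKM in Cfb-/- diabetic mice. Of 9 connecting tubule and principal cell markers 3 rose in WT and 1 in Cfb-/- mice, and of 7 thick ascending limb markers 3 and 2 rose and 1 fell. All 9 injured tubule markers rose in both genotypes, from a sum of 15.1 to 16.4 FPKM to 186 to 275 FPKM in WT mice and from 20.5 to 23.6 FPKM to 164 to 319 FPKM in Cfb-/- mice. Macrophage markers rose, 8 of 8 in WT and 7 of 8 in Cfb-/- mice, from 67.6 to 84.9 FPKM to 257 to 382 FPKM in WT mice and from 56.8 to 88.8 FPKM to 225 to 412 FPKM in Cfb-/- mice. Of 7 T and B cell markers 5 and 3 rose, and of 6 endothelial markers 3 and 3, counts near those shares for the endothelial markers. Urothelial markers rose for 7 of 7 genes in WT and 0 of 7 in Cfb-/- mice by limma (0 also at an unadjusted p under 0.05). Their sum was 0.280 to 0.778 FPKM in WT control mice and 0.721 FPKM in WT diabetic mouse 1, where 3 of the 7 genes were listed at 0, against 18.0 to 51.1 FPKM in the other WT diabetic mice. Among Cfb-/- mice the sum ran from 1.31 to 3.58 FPKM in the diabetic group, and the control mice had 0.636, 10.0 and 10.3 FPKM. Adipocyte markers rose for 5 of 5 tested in WT and 1 of 5 in Cfb-/- mice, while 1 adrenal and 2 muscle genes could be tested. Whether these markers had a part in the changes of the 10 genes was not tested, apart from the comparison with the segment markers.

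Each of the 10 genes was therefore also measured against the markers of the tubule segment in which it is best known, as the difference between its log2 level and the mean log2 level of the 10 proximal or 8 distal convoluted tubule markers in the same mouse. The mean of the proximal markers was lower in diabetes by 1.09 in WT mice and 1.01 in Cfb-/- mice (exact permutation p of 0.0286 and 0.0571), and the mean of the distal markers differed by 0.04 and 0.16 (exact permutation p of 0.857 and 0.429). Trpv5, Calb1 and Slc8a1 also act in the connecting tubule. They were not measured against the connecting tubule and principal cell markers, whose median change was 0.36 in WT and 0.35 in Cfb-/- mice. The p-values that follow are exact permutation values, without adjustment for the number of genes.

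Relative to proximal markers, Slc34a1 differed by -0.25 in WT mice and -0.28 in Cfb-/- mice, and the diabetic and control mice overlapped (exact p of 0.0857 each). The value depended on how the markers were summarized. Against their median, also chosen after the values were seen, Slc34a1 differed by -0.26 in WT mice, with overlap (exact p of 0.0571). In Cfb-/- mice it differed by -0.39, with no overlap (exact p of 0.0286). Without Slc5a2 and Slc5a12, left out after the values were seen as markers that fell far, the proximal mean differed by -0.69 and -0.79, and Slc34a1 by -0.65 and -0.51, with no overlap (exact p of 0.0286 each). Leaving out markers that fell far lowers every relative difference by construction. The exact p without that pair of markers is therefore descriptive and not a test. Slc34a3 remained below, by 2.80 and 1.95 on the log2 scale or 6.94-fold and 3.86-fold, with no overlap and an exact p of 0.0286 each, and by 3.19 and 2.17 without that pair of markers (exact p of 0.0286 and 0.0571). The level of Slc20a2, a gene of many cells that did not pass over all RNA, gives no separate result here, since its relative difference of 1.27 and 1.12 follows from the lower markers. Vdr was lower in diabetes by less than the mean of these markers, so the sign of its difference was reversed. Its relative level was higher by 0.58 in WT mice and 0.71 in Cfb-/- mice (exact p of 0.0571 and 0.0857), with no overlap. Without Slc5a2 and Slc5a12 the relative level of Vdr was higher by 0.19 and 0.48, with overlap in both genotypes (exact p of 0.400 and 0.257). Like that of Slc20a2, this relative difference follows from the lower markers and gives no separate result. Cyp24a1 and Cyp27b1 overlapped, with relative differences of 0.79 to 1.46. Relative to the mean of the distal markers, Trpv5 was higher by 1.21 and 1.02 and Calb1 by 0.66 and 0.65, with no overlap and an exact p of 0.0286 each. Slc8a1 was higher by 0.25 and 0.33 (exact p of 0.314 and 0.0571), and Kl differed by -0.07 and -0.35 (exact p of 0.457 and 0.114). With the median of these markers, which differed by -0.39 in WT mice, the differences in WT mice were 1.64 for Trpv5, 1.09 for Calb1, 0.68 for Slc8a1 and 0.36 for Kl. In Cfb-/- mice they were 1.18, 0.81, 0.49 and -0.19 (exact p of 0.0571, 0.0571, 0.114 and 0.629), with no overlap for Trpv5 and Calb1. Against Slc12a3 alone, 1 of these markers, Trpv5 was higher by 1.19 and 0.83 with no overlap (exact p of 0.0286 and 0.0571). Calb1 was higher by 0.60 and 0.43 (exact p of 0.0571 and 0.114), with overlap in Cfb-/- mice. Slc8a1 overlapped in both genotypes, at 0.20 and 0.12 (exact p of 0.257 and 0.486).

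**Figure D4:**
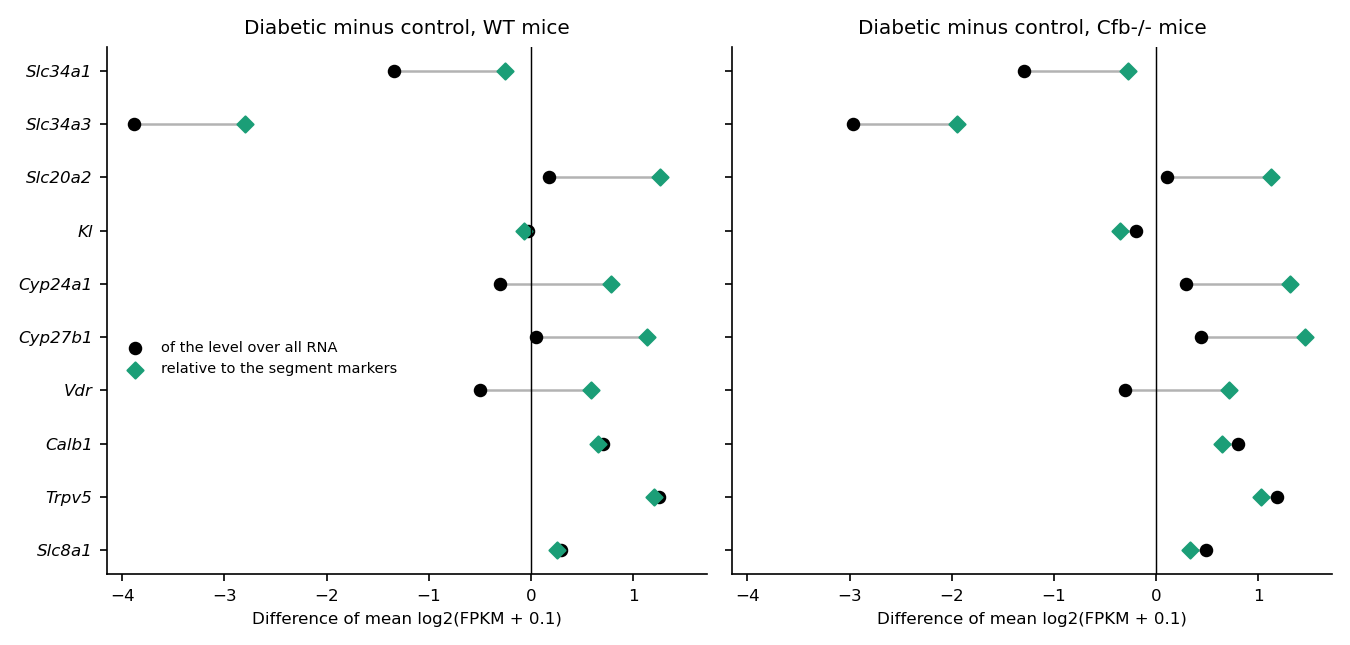
Difference between diabetic and control mice in mean log2(FPKM + 0.1) for the 10 genes, as the level over all RNA (black circles) and relative to the mean of the markers of the gene's tubule segment (green diamonds), in WT mice (left) and Cfb-/- mice (right) on a shared axis. Slc34a1 moves from -1.34 to -0.25 in WT mice, Slc34a3 stays below 0, Vdr crosses 0, and Calb1 and Trpv5 hardly move.

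The second question was whether deletion of Cfb altered these genes. Among diabetic mice 0 of the 10 genes passed, against 0.00671% of all genes, which is Cfb itself. Among control mice 0 of the 10 passed, again against 0.00671%, and again Cfb was the gene that passed. The test of whether diabetes acted differently in the genotypes passed for 0 of the 10 genes and for 0% of all genes. At an unadjusted p under 0.05 from limma, 0 of the 10 genes passed in any of these comparisons, against 448 genes in diabetic mice, 2614 in control mice and 861 for the difference between genotypes.

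Within diabetic mice the genotypes overlapped for every one of the 10 genes. How many of all genes overlapped was not counted, so this is not a result about these genes. The log2 difference of Cfb-/- against WT mice was -0.18 (95% interval -0.55 to 0.19) for Slc34a1 and 0.31 (interval -0.50 to 1.12) for Slc34a3. For Kl it was 0.19 (interval -0.16 to 0.55), for Vdr 0.17 (interval -0.08 to 0.42) and for Slc20a2 0.03 (interval -0.28 to 0.34). The interval left room for a change of over 2-fold in Slc34a3, Cyp24a1, Cyp27b1 and Slc8a1. The calcium genes differed by 0.33 for Trpv5, 0.32 for Calb1 and 0.52 for Slc8a1, with the last at an interval of -0.13 to 1.16. The adjusted p from limma was 1 for each of the 10 genes.

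Within control mice the groups of Kl and Slc34a3 did not overlap, while those of the other genes did. The share of all genes without overlap was not counted, so this is not read as a result about these genes. Kl was at 150 to 161 FPKM in Cfb-/- control mice and at 91.9 to 143 FPKM in WT control mice, a log2 difference of 0.36 (interval -0.05 to 0.77, adjusted p = 0.326 from limma). Slc34a3 was at 10.2 to 12.4 FPKM in Cfb-/- control mice and at 16.2 to 19.7 FPKM in WT control mice, a log2 difference of -0.61 (interval -1.54 to 0.33, adjusted p = 0.452 from limma). The exact permutation p was 0.1 for both, the smallest that 3 mice against 3 allow, so no gene could pass 0.05 by that test. The mean of the distal markers was also higher, by 0.23, and that of the proximal markers lower, by 0.23, in Cfb-/- control mice, and relative to its markers Kl differed by 0.13 and Slc34a3 by -0.38, with an exact p of 0.1 each. Relative to the median of the markers these values were 0.50 (exact p of 0.2, with overlap) and -0.27 (exact p of 0.1).

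The change of Slc34a3 with diabetes differed most between the genotypes among the 10 genes, by 0.92 on the log2 scale (SE 0.58, interval -0.32 to 2.16). Its adjusted p was 0.779 from limma, and an exact permutation test that exchanged genotypes among mice of the same diabetes status gave 0.137. The other 9 genes differed by -0.17 to 0.59, with adjusted p of 0.796 to 0.972 from limma. Of the 65 tested pathway genes 0 passed in these comparisons by limma.

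**Figure D5:**
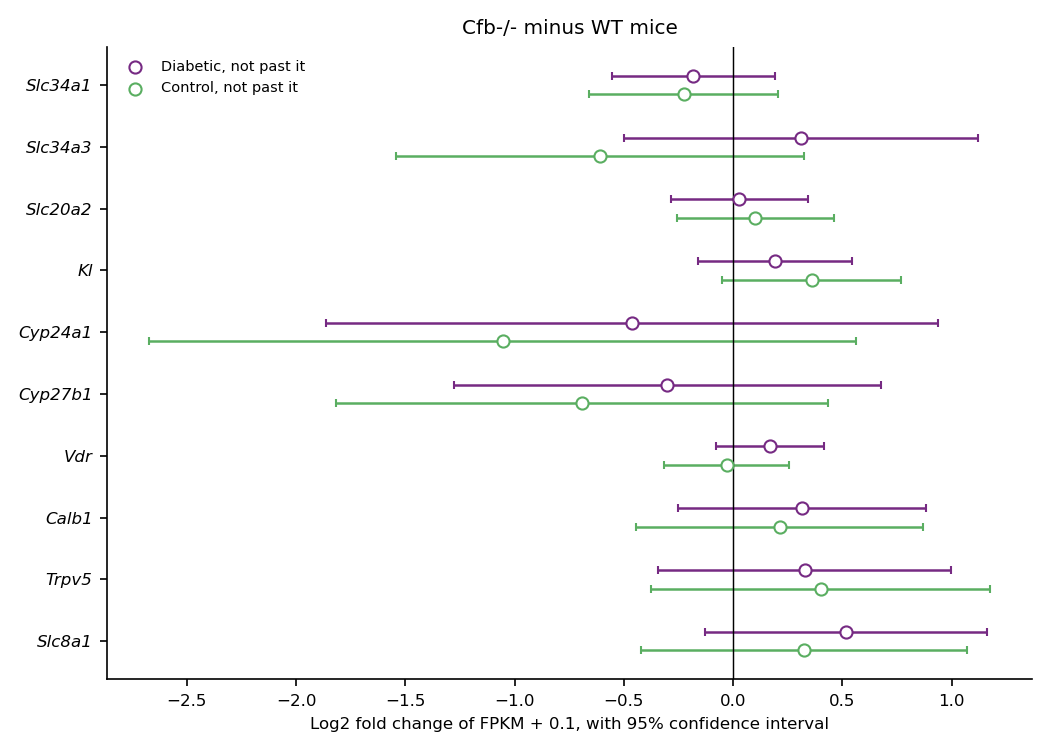
Log2 difference of Cfb-/- against WT mice for the 10 genes in diabetic mice (purple) and control mice (green), with 95% confidence intervals from limma. All points are open because no adjusted p was under 0.05, and every interval includes 0.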

How the data were processed

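The authors deposited an FPKM value per gene and mouse. The submitters' processing notes name Trimmomatic, HISAT2, Cufflinks, HTSeq, DESeq and the build GRCm38.p6, without roles or versions. Libraries were stranded mRNA, read from both ends. FPKM is relative to all RNA, so a few abundant transcripts can shift every other gene. The reads behind the values are unknown, and no interval on counts is given.

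Genes with at least 0.1 FPKM in at least 3 mice (14912 of 21878) were tested with limma 3.58.1 (R 4.3.3, mean-variance trend, Benjamini-Hochberg adjustment) on log2(FPKM + 0.1), which understates changes of low genes. The study's own test takes read counts, so it was replaced. Mice are separate animals. Single genes were compared by exact two-sided permutation of the mice. The fit was tested on simulated data. Promoters came from RefSeq, gene spans from RefSeq's table for GRCm38.p6 and 1 transcript start from GENCODE. Python 3.11.15 (pandas 2.3.3, scipy 1.17.1, numpy 2.4.6, matplotlib 3.10.9) made the tables and figures.

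The 10 genes, the pathway lists and the marker lists were chosen with earlier results of these data known. All 10 genes are named. From each list, the 2 largest rises and 2 largest falls in WT mice past the threshold could be named, with Pth1r, Fgfr1, Trpv6, S100g, Atp2b1, Slc9a3r1, Pdzk1, Lrp2, Klk1 and Slc12a3. The alternatives were other pseudocounts, filters and scalings, no trend, the compared groups alone, a replicate block, segment markers, and leaving out each mouse. The median of the segment markers and their mean without Slc5a2 and Slc5a12 were added after the data were seen.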

Additional observations from a re-analysis of the deposited data

Results flagged for a closer look

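In 2 of 20 groups of 4 mice 1 mouse stood apart from the others by Dixon's test, which by chance marks about 1 in 20 groups. Cyp27b1 was at 0.680 FPKM in WT diabetic mouse 3, while the other WT diabetic mice had 1.95 to 2.20 FPKM, and this gap made up 0.833 of the range. Vdr was at 47.5 FPKM in WT diabetic mouse 4, while the others had 35.9 to 37.6 FPKM, a gap of 0.849 of the range.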

How the results depend on the processing

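The calls of Slc34a1 and Slc34a3 in both genotypes were kept under all limma alternatives, with log2 fold changes of -1.62 to -0.84 and -4.19 to -2.32. Relative to its segment markers, which fell more, Vdr in WT mice changed sign, to 0.58 (also 0.58 with their median, and 0.19 without Slc5a2 and Slc5a12, both chosen after seeing the data). That change of sign follows from the lower markers and gives no separate result. Leaving out 1 mouse at a time gave 2 to 5 of the 10 genes past the threshold in Cfb-/- diabetes, with 2 without Cfb-/- control mouse 3. For deletion in diabetic mice, the count of all genes was 1 and became 2 with a pseudocount of 0.01, 2 without a filter, 3 with each mouse rescaled to the same sum and 3 with only the groups compared, and 1 to 6 with 1 mouse left out. For deletion in control mice it was 1 and became 4, 3 and 4 with the same pseudocount, no filter and only the groups compared, and 1 to 1711 with 1 mouse left out, the highest without WT control mouse 1. For the difference between genotypes it was 0, 2 with the pseudocount of 0.01, and 0 to 4 with 1 mouse left out. The 10 genes had 0 calls in these 3 comparisons under every alternative run.

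Calb1 in Cfb-/- mice also missed the threshold with median-ratio scaling (0.56, adjusted p = 0.127), without a filter (0.0609), and without a trend (0.0566). Vdr in Cfb-/- mice passed with median-ratio scaling (-0.55, adjusted p = 0.00215), and Slc20a2 in WT mice passed with rescaling to the same sum (0.49, adjusted p = 0.0391). With the replicate number as a replicate block, Calb1 in Cfb-/- mice was 0.76 (adjusted p = 0.0923), 3 of the 10 genes passed in Cfb-/- mice and 4 in WT mice, and 6278 and 4463 of all genes passed in WT and Cfb-/- diabetes. Same-numbered mice deviated together with r of -0.388 to 0.243, so no pairing by number was seen. The DESeq2 and edgeR alternatives were not run, since they take read counts. Depth limits Cyp27b1, Trpv5 and Slc34a3 in diabetic mice most, as the lowest levels of the 10.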

Other observations

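Whether the genes of a tubule segment were highest and lowest in the same mice varied between groups. In Cfb-/- diabetic mice all 6 genes of the proximal group were highest in mouse 3, which also had the highest mean of the proximal markers, at 7.04 on the log2 scale against 5.82 to 6.69 in the others. All 4 genes of the distal group were highest in mouse 1, while the mean of the distal markers was highest in mouse 2, at 4.65 against 4.51 in mouse 1. In WT diabetic mice all 4 distal genes were highest in mouse 4 and lowest in mouse 3, and the mean of the distal markers was 4.48 and 3.66 in these mice, the highest and lowest of the group. The proximal genes of the same group were spread, with 3, 2 and 1 of the 6 highest in mice 1, 2 and 4. In WT control mice all 4 distal genes were lowest in mouse 2, which also had the lowest mean of the distal markers, at 3.77. The same mouse was lowest for 4 of the 6 proximal genes and had the lowest mean of the proximal markers, at 7.63. Its low values were thus not particular to the distal genes, and its library had the highest FPKM sum and Kap share. The distal genes of Cfb-/- control mice were split, 2 highest in mouse 1 and 2 in mouse 2. The genes share these libraries, so they are not separate observations of a mouse.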
